A study of Homo sapiens with 4 samples.

Results

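The expression of 46 genes of neural progenitor cells was followed through 4 long-read RNA libraries from cultures of human cortical neurons. The genes were taken from a fixed list of symbols and fall into 9 sets by role: progenitor transcription factors, SOX factors, Notch ligands, Notch receptors, HES factors, ID proteins, filament, adhesion and membrane proteins of radial glia, RNA- and chromatin-binding proteins of immature cells, and a set of growth factor receptors with the KIT ligand. Each of the 46 symbols matched 1 gene of the 77973 in the deposited annotation. Of these, 37 had a mean of at least 5 reads over the libraries and were tested, and 9 were below that level.

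The starting cells were KOLF2.1J, a widely used line of human pluripotent stem cells made by reprogramming, in a derivative that carries doxycycline-inducible NGN2, the transcription factor that drives the conversion to neurons, and a constitutive dCas9-BFP-KRAB repressor for CRISPR interference. All groups therefore share NGN2 induction, the repressor, a lentiviral guide RNA and puromycin selection, and each was a selected pool of cells. The control group carried a non-targeting (NT) guide, and the knockdown group a guide against TDP-43, an RNA-binding protein that regulates splicing. The azacytidine group carried the non-targeting guide and received 5 µM 5-azacytidine, a cytidine analogue that blocks DNA methyltransferases, for 72 hours after the neuronal spheroids had been plated, and the combined group had the TDP-43 guide and the drug. Harvest was on 1 of 2 culture days, and which of them applied to these libraries is not given in the sources used here. Each group had 1 library, so a difference has no replicate check beyond a second pair of libraries.

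Neural progenitors, including the radial glia of the developing cortex, divide and give rise to neurons. PAX6, LHX2, EMX2, OTX2 and SOX factors give these cells their regional and progenitor identity. Notch ligands on one cell activate Notch receptors on its neighbour, the receptor's released intracellular part acts with the DNA-binding protein RBPJ, and HES repressors made in response hold back neuronal genes. FGF receptors pass on signals that sustain division. As a progenitor leaves the cell cycle and becomes a neuron, most of these genes are normally shut down, while SOX4 and SOX11 are also active in young neurons.

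Sequencing gave 595158 reads assigned to genes in the control library, 767621 in the knockdown library, 466337 in the azacytidine library and 477622 in the combined library. TARDBP, the gene of TDP-43, stood at 58.2% of its level without the guide in the absence of the drug and at 60.0% in its presence. Markers of neurons were abundant throughout, with a summed level between 3986 and 4781 CPM (reads scaled to effective library size) for 16 genes. POU5F1 and NANOG, which define pluripotent cells, had at most 2 reads in any library. They belong to a list of 12 pluripotency markers that was not silent. Its summed level was 740 and 756 CPM in the control and knockdown libraries and 456 and 554 in the azacytidine and combined libraries. SALL4 had 82 and 99 reads in the control and knockdown libraries, and LIN28A, a member, had 129 and 200. Of 15 genes of dividing cells, 14 were tested by the rule given below. With azacytidine 9 fell and 0 rose, beside 6.19% and 2.56% of all tested genes. The summed level of the 15 was 1641 and 1454 CPM in the control and knockdown libraries against 200 and 187 in the azacytidine and combined libraries. This shift moved with the results below, and its part in them was not tested. In cultures that mix cell types, fewer progenitor cells and less RNA per progenitor cannot be told apart.

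A gene was said to have changed when an exact binomial test of its reads between 2 libraries gave an adjusted p under 0.05 and the log2 ratio was at least 1 in size, with the same sign in each of 2 pairs made of different libraries. For azacytidine these pairs were azacytidine over control and combined over knockdown. By that rule 24 of the 37 tested members fell with azacytidine and 0 rose, against 6.19% of all 13789 tested genes that fell and 2.56% that rose. The members were chosen with earlier results of these data known, so this contrast describes the list and is no independent test of it. The median log2 ratio of the 37 was -2.32 without the knockdown and -2.65 with it, where the median over all tested genes was 0.02 and -0.02. In 35 of all 46 members, the 9 untested ones included, both azacytidine libraries lay below both libraries without the drug. Of all tested genes 27.9% showed that pattern, a share that leaves out genes below the level for testing. An edgeR additive model over the 4 libraries called 26 members lower, the same 24 with FGFR3 and ID4 added. A DESeq2 additive model called 14 members, all among the 24. Over all tested genes, edgeR called 6.66% lower and DESeq2 1.28%. The paired rule on counts of full-length reads called 8 members lower.

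**Figure D1:**
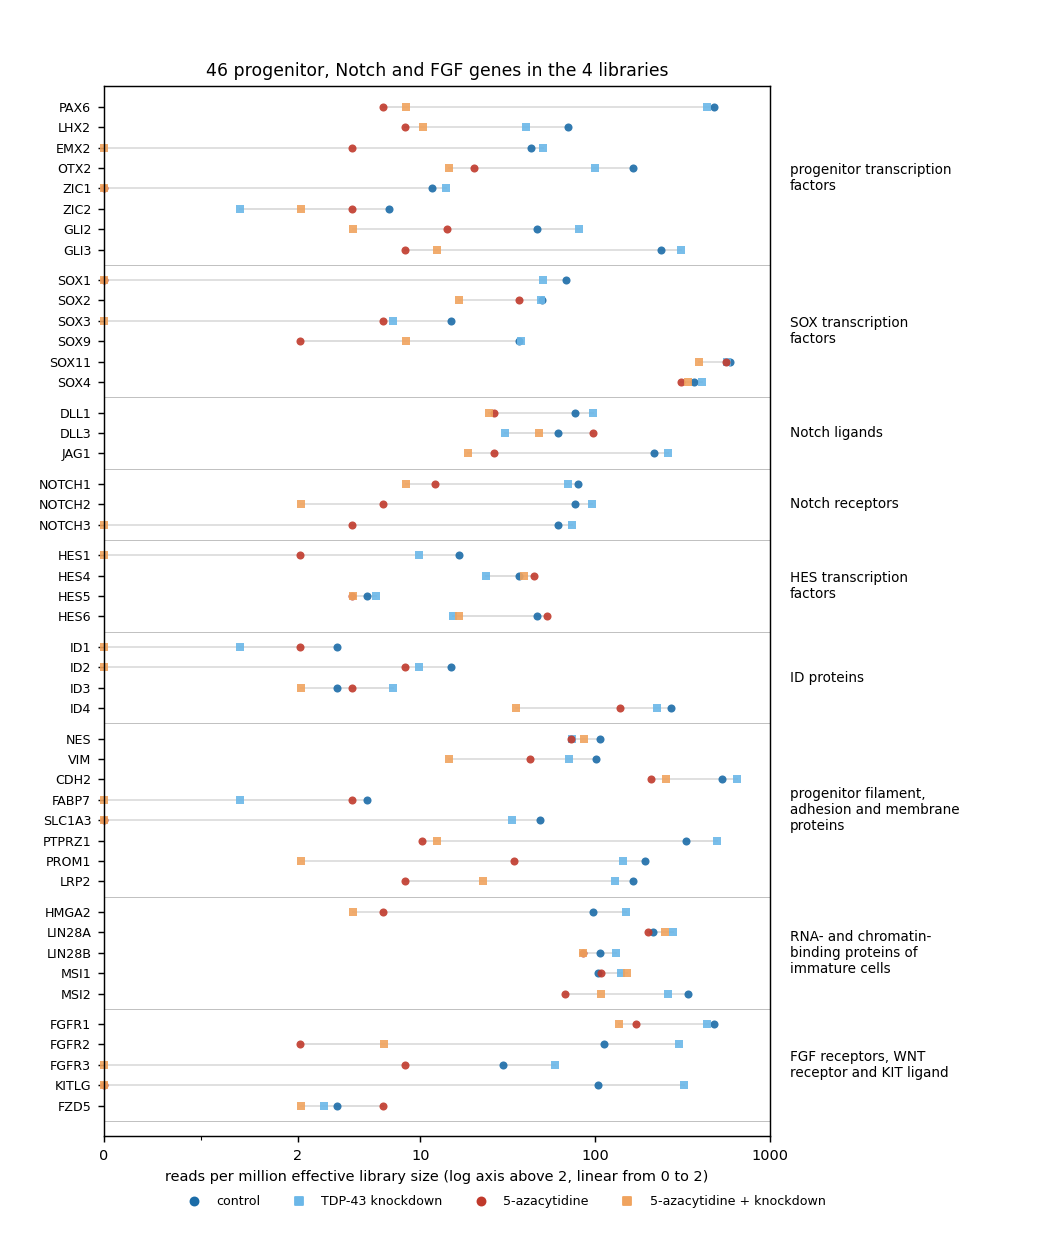
Level of each of the 46 members in the 4 libraries, as CPM on an axis that is logarithmic above 2 and linear from 0 to 2; each point is 1 library, and members are grouped by role. Red and orange points (with azacytidine) sit to the left of the blue ones for PAX6, GLI3, the 3 Notch receptors, PTPRZ1, FGFR2 and KITLG, and close to or among the blue ones for SOX11, SOX4, LIN28A and MSI1.

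Of the 8 progenitor transcription factors, 6 were tested and all 6 fell, beside 6.19% of all tested genes. PAX6 (ENSG00000007372.25, chromosome 11, 31784779 to 31817961, minus strand, hg38), a paired-box and homeobox factor that marks cortical radial glia, had 290 control reads, 313 knockdown reads, 3 azacytidine reads and 4 reads in the combined library. The groups with and without the drug did not overlap, and the 2 libraries without the drug were close to each other. Of all tested genes, 27.9% had both azacytidine libraries below both others. Azacytidine lowered PAX6 78.9-fold without the knockdown (log2 ratio -6.08, 95% Clopper-Pearson interval of the log2 ratio -8.59 to -4.74; adjusted p = 1.98e-66, exact binomial test) and 52.7-fold with it (log2 ratio -5.55, interval -7.61 to -4.35; adjusted p = 2.49e-60, exact binomial test). Such tests compare the reads of 2 libraries, and the intervals cover counting error only. The size of the fall depended on which reads were counted: the log2 ratios were -3.93 and -4.76 in uniquely assigned reads and -4.31 and -4.61 in full-length reads, and in the pair without the knockdown both values lie outside the interval above.

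GLI3, a zinc-finger factor that carries Hedgehog signals and patterns the dorsal forebrain, had 143 and 222 reads without the drug and 4 and 6 after it, a fall of 29.2-fold and 24.9-fold in the pairs without and with the knockdown. Its relative GLI2, the main activator of Hedgehog targets, went from 28 to 7 reads without the knockdown and from 58 to 2 with it. Both GLI genes thus fell in both pairs, with log2 ratios of -1.63 and -3.98 for GLI2. OTX2, a homeobox factor of the forebrain and midbrain, went from 100 to 10 reads and from 72 to 7. LHX2, a LIM homeobox factor that specifies cortex, had 42 and 29 reads without the drug and 4 and 5 with it. LHX2 was among the smaller falls of the set, 8.57-fold and 3.91-fold. EMX2 (chromosome 10, 117542445 to 117549546), a homeobox factor graded across the cortical sheet, kept 2 reads of 26 in the pair without the knockdown and 0 of 36 in the pair with it, at least 8.09-fold lower when the 0 is read as 3 reads, the limit that a count of 0 allows. EMX2OS, which overlaps EMX2 on the opposite strand over 445 exon bases, had 13, 20, 0 and 0 reads in the libraries taken in the order control, knockdown, azacytidine, combined. The zinc-finger factors ZIC1 and ZIC2 were too low to test, with 0 to 10 reads and 1 to 4 reads.

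Of the 5 SOX factors tested, 2 fell and 3 did not meet the rule, beside 6.19% of all tested genes that fell. SOX1 (chromosome 13, 112067149 to 112071706), whose expression marks neuroepithelium and early progenitors, had 41 and 36 reads without azacytidine and 0 in each library with it, at least 11.2-fold lower without the knockdown and at least 8.09-fold with it. SOX9, a factor of radial glia and glial precursors, went from 22 reads to 1 and from 27 to 4. Both of these genes were nearly or fully out of the drug-treated libraries.

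SOX11 stayed high, with 357 reads in the control library, 407 under knockdown, 276 under azacytidine and 189 under both. Its log2 ratio was -0.08 without the knockdown (interval -0.31 to 0.15) and -0.54 with it (interval -0.79 to -0.28; adjusted p = 0.000161, exact binomial test). Both intervals lay between -1 and 1, but the pair with the knockdown was lower with the drug. SOX4 had 221, 292, 153 and 164 reads and log2 ratios of -0.24 and -0.26, also with intervals between -1 and 1. In full-length reads its ratios were -1.19 and 0.60, of opposite sign in the 2 pairs. SOX2, a core factor of neural stem cells, had 30 and 35 reads without the drug and 18 and 8 with it. Its log2 ratios of -0.43 and -1.49 had adjusted p-values of 0.538 and 0.0119 in the exact binomial test, so the pair with the knockdown passed and the other did not. SOX3 was too low to test, at 0 to 9 reads.

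Notch genes were compared by role. All 3 receptors among the members fell, beside 6.19% of all tested genes. NOTCH1 had 48 and 50 reads in drug-free libraries against 6 and 4 under azacytidine, 6.53-fold lower without the knockdown and 8.42-fold lower with it. NOTCH2 (chromosome 1, 119911553 to 120100779) went from 46 to 3 reads and from 69 to 1. NOTCH3 (chromosome 19, 15159038 to 15200995) went from 37 to 2 and from 53 to 0, the latter at least 11.9-fold. In each receptor the 2 drug-treated libraries lay below both others, a pattern that 27.9% of all tested genes showed. NOTCH2 has near-identical NOTCH2NL copies on the same chromosome that the authors' read assignment could confuse with it, so its reads are less certain.

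Among the ligands, which bind receptors on the next cell, DLL1 and JAG1 fell and DLL3 did not. JAG1 had 131 and 188 reads without the drug and 13 and 9 with it, 8.23-fold and 14.1-fold lower. DLL1 had 46 and 70 reads without it and 13 and 12 with it, with log2 ratios of -1.49 and -1.93. FAM120B shares 370 exon bases with DLL1 on the opposite strand and had 119 and 276 reads without the drug (control, then knockdown) and 106 and 205 with it. DLL3, a divergent family member that acts inside the cell that makes it and dampens signalling, had 37 control reads and 48 with azacytidine, and 22 in the knockdown library and 23 in the combined library. Its log2 ratios of 0.66 and 0.63 were positive in both pairs, with adjusted p-values of 0.126 and 0.306 in the exact binomial test. EID2B shares 1232 exon bases with DLL3 on the opposite strand and had 12, 8, 9 and 7 reads in the order control, knockdown, azacytidine, combined.

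The HES set gave no call for azacytidine among its 2 tested genes, HES4 and HES6, the latter given below. The classical Notch targets HES1 and HES5 were too low to test, so the set does not show whether these targets changed. HES4 had 22 and 17 reads without the drug and 22 and 19 with it, log2 ratios of 0.29 (interval -0.63 to 1.21) and 0.73 (interval -0.29 to 1.76). Those intervals leave room for a rise or a modest fall. HES1 had 10 and 7 reads without azacytidine against 1 and 0 in its presence, and HES5 had 3 and 4 without it and 2 in each library with it, both under the level for testing. HES4 shares 286 exon bases with ISG15 on the opposite strand, which had 9, 2, 1 and 0 reads in that order of libraries.

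Promoter sequences of HES1, HES4 and HES5 are shown because their Notch response runs through RBPJ, the factor that receptors bind to. They are the 250 bases before the RefSeq start (GRCh38.p14), each written 5′ to 3′ on the strand of the gene, with every GTGGGAA or its reverse complement TTCCCAC, the letters of the RBPJ motif, in capitals.
HES1 at chr3:194135898-194136147, plus strand: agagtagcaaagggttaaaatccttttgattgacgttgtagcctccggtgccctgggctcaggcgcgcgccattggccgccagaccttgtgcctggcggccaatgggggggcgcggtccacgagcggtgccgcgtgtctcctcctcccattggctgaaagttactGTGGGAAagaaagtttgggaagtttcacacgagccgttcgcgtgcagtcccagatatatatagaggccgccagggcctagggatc
HES4 at chr1:1000098-1000347, minus strand: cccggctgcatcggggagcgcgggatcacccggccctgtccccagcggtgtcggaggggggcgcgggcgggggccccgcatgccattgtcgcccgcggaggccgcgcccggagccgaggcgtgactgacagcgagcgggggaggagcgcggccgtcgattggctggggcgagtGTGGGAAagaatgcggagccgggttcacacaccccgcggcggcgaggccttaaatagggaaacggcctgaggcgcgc
HES5 at chr1:2530264-2530513, minus strand: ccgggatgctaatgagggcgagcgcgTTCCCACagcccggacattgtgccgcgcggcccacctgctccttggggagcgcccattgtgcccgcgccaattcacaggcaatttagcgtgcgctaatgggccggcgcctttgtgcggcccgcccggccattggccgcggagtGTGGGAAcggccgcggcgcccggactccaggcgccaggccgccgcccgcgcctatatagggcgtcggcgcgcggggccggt
The motif occurred 1 time in HES1, 1 time in HES4 and 2 times in HES5. RefSeq windows matched 37 of the 46 members, and 32 of these windows began within 100 bases of the start of the most-read transcript of the gene. The 3 HES genes were the only ones of those 32 with the motif (9.38%), and 5.43% of all 35116 promoter windows of this length held it. A match is a stretch of letters and does not show that RBPJ bound there in these cells.

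The remaining HES member was the 1 gene of the list called with the knockdown. HES6, which opposes HES1 and favours neuronal differentiation, had 28 control reads and 26 with azacytidine, and 11 reads in the knockdown library and 8 in the combined library. It was lower in both knockdown pairs (log2 ratio -1.56, adjusted p = 0.0136 without azacytidine and log2 ratio -1.61, adjusted p = 0.0338 with it, exact binomial test), where 0.363% of all tested genes were called lower. No call remained for HES6 in the edgeR or DESeq2 additive model, in uniquely assigned reads, in full-length reads, or without the filter on low counts. Its ratios to azacytidine were close to 0 on the log2 scale, 0.19 and 0.13.

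Other genes of the Notch pathway were taken from a list. Of its 49 further ligands, processing enzymes, cofactors and targets, 45 were tested, 4 fell with azacytidine and 2 rose, where 6.19% and 2.56% of all tested genes did, and the median log2 ratio was 0.04 without the knockdown and -0.06 with it. MAML2, a coactivator of the receptor complex, went from 11 reads to 0 and from 21 to 0. LFNG, a glycosyltransferase that tunes receptors to their ligands, went from 17 to 0 and from 14 to 1. The other two that fell are targets of Notch. NRARP, whose product dampens the pathway, went from 21 to 3 reads and from 9 to 0, and HEYL, a repressor related to the HES factors, from 27 to 7 and from 28 to 6. DTX1, a ubiquitin ligase that binds Notch, rose from 13 to 35 reads and from 11 to 37. BEND6, a corepressor of Notch targets in neurons, rose from 22 to 46 and from 25 to 59. RBPJ itself had 165, 164, 103 and 79 reads in that order of libraries and was not called.

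The ID proteins bind to bHLH factors and keep them from activating neuronal genes. Neither of the 2 tested ID genes met the rule. ID4 had 165 and 162 reads without azacytidine, 68 with azacytidine alone and 17 with both treatments. Its log2 ratio of -0.98 in the pair without the knockdown (adjusted p = 2.11e-05, exact binomial test) missed only the limit on size, and the ratio with the knockdown was -2.65 (adjusted p = 5.82e-18, exact binomial test). ID2 had 9, 7, 4 and 0 reads in that order of libraries. ID1 and ID3 were too low to test, with 0 to 2 and 1 to 5 reads.

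Filament, adhesion and membrane proteins of radial glia fell for 6 of 7 tested genes, beside 6.19% of all tested genes. PTPRZ1, a receptor phosphatase of radial glia, had 199 and 359 reads without the drug and 5 and 6 after it, 32.5-fold lower without the knockdown and 40.3-fold with it. SLC1A3 (chromosome 5, 36596588 to 36688334), the glutamate transporter of radial glia and astrocytes, had 29 and 24 reads without the drug and 0 in each library with it, at least 7.89-fold and at least 5.39-fold lower. LRP2, an endocytic receptor on the apical surface of neuroepithelium, went from 100 to 4 reads and from 93 to 11. In these 3 genes and in PROM1, CDH2 and VIM both azacytidine libraries lay below both others, 6 of the 7 tested genes of the set, beside 27.9% of all tested genes.

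PROM1, the membrane protein of apical protrusions also called CD133, had 117 and 103 reads without azacytidine, 17 with azacytidine alone and 1 in the combined library. CDH2, the N-cadherin of adherens junctions, fell by a smaller factor, from 321 to 103 and from 465 to 123 reads, 2.54-fold and 2.55-fold. VIM, an intermediate filament protein, went from 61 to 21 and from 51 to 7. NES, another filament protein of progenitors, was the tested gene of the set that was not called. It had 64 and 53 reads without the drug and 36 and 42 with it, with log2 ratios of -0.53 (interval -1.17 to 0.07) and 0.24 (interval -0.39 to 0.85). In full-length reads its ratios were -1.57 and -1.27. FABP7, a fatty acid binding protein of radial glia, had 0 to 3 reads and was not tested. Of 8 astrocyte markers 3 were tested, 1 fell and 0 rose, beside 6.19% and 2.56% of all tested genes. The summed level of the 8 was 301 and 304.8 CPM without the drug and 246.5 and 207.5 with it. GJA1, a gap junction protein that radial glia also make, fell from 43 reads to 4 and from 39 to 0. GLUL had 85 and 106 reads without the drug and 68 and 51 with it, SLC1A2 had 48 and 63 against 45 and 46, and neither was called. GFAP had at most 1 read and AQP4 had 0 reads in any library. The part of such cells in these results was not tested.

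RNA- and chromatin-binding proteins of immature cells were divided, with 2 of 5 lower, beside 6.19% of all tested genes. HMGA2 (chromosome 12, 65824460 to 65966291), a chromatin protein of young stem cells, went from 59 to 3 reads without the knockdown and from 108 to 2 with it, 16.1-fold and 36.4-fold lower. HMGA2-AS1, which overlaps HMGA2 on the opposite strand, had 11, 23, 0 and 0 reads. MSI2, an RNA-binding protein of stem cells, had 204 and 188 reads in drug-free libraries against 33 and 52 under azacytidine. The related gene MSI1 was not called: it had 63 and 101 reads without the drug and 53 and 74 with it, and log2 ratios of 0.05 and 0.12 with intervals between -1 and 1.

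LIN28A, which blocks the maturation of let-7 microRNAs, had 129 and 200 reads without azacytidine against 99 and 121 in its presence, log2 ratios of -0.09 and -0.15 and intervals between -1 and 1 in both pairs. LIN28B, its paralog, had 64 and 94 reads without the drug and 42 and 41 with it, log2 ratios of -0.31 and -0.62. Neither LIN28 gene was called. The 4 members whose log2 intervals lay between -1 and 1 in both pairs were SOX11, SOX4, LIN28A and MSI1.

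FGF receptors 1 and 2 and the KIT ligand fell. KITLG (chromosome 12, 88492793 to 88580851, minus strand), the secreted or membrane-bound ligand of the KIT receptor, had 63 reads in the control library, 230 in the knockdown library and 0 in each library with azacytidine. It was at least 17.1-fold lower without the knockdown and at least 51.7-fold lower with it. FGFR2 (chromosome 10, 121478332 to 121598458) had 68 and 217 reads without the drug and 1 and 3 with it, with log2 ratios of -5.22 (interval -11.12 to -3.27) and -5.39 (interval -7.90 to -4.04). FGFR1 fell by a smaller factor, from 288 to 84 and from 315 to 66 reads, 2.80-fold and 3.22-fold. LETM2 shares 138 exon bases with FGFR1 on the opposite strand and had 17 and 24 reads without the drug and 27 and 18 with it. FGFR3 had 18 and 42 reads without the drug and 4 and 0 after it, and was not called, with an adjusted p of 0.0687 in the exact binomial test without the knockdown. FZD5, a WNT receptor, had 1 to 3 reads and was not tested.

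Other genes of the FGF pathway were compared from a list of 31 that holds ligands, further receptors, adaptors, feedback inhibitors and target genes. Of these 26 were tested, 3 fell with azacytidine and 0 rose, beside the same 6.19% and 2.56% of all tested genes, with median log2 ratios of -0.42 and -0.98. SPRY1, a feedback inhibitor that FGF signals induce, went from 16 to 3 reads and from 35 to 4. SPRED1, another inhibitor of the RAS pathway, went from 72 to 17 and from 135 to 13. GAB1, a docking protein, went from 33 to 10 and from 62 to 8.

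**Figure D2:**
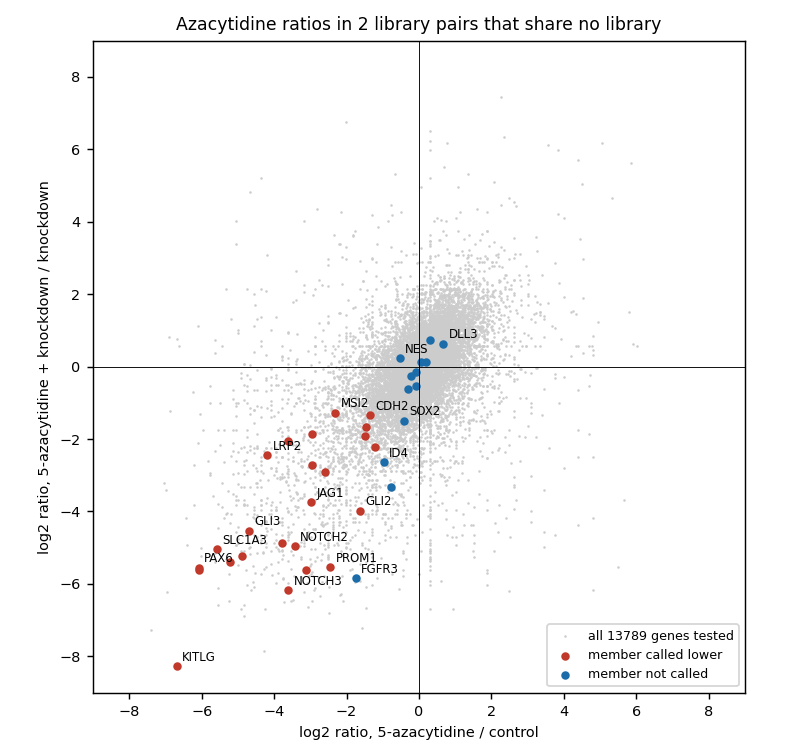
Log2 ratio of each tested gene for azacytidine over control (horizontal) and for combined over knockdown (vertical), with all 13789 tested genes in grey and the 37 tested members in red (fell) or blue (not called). The 24 red members lie at the lower left, and the blue ones around 0 include NES and DLL3, with ID4 and FGFR3 below the diagonal; positions of genes with 0 reads depend on the pseudocount of 0.5.

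Members that vanished were counted separately: at least 20 reads in each library without azacytidine and at most 3 in each library with it. There were 8, namely EMX2, SOX1, NOTCH2, NOTCH3, SLC1A3, HMGA2, FGFR2 and KITLG, and 1.75% of the 7776 genes with enough reads did the same. SOX1, SLC1A3 and KITLG had 0 reads in both azacytidine libraries. PAX6, with 3 and 4 reads, lay just outside the rule, and GLI3 with 4 and 6 and PTPRZ1 with 5 and 6 came next. PAX6, GLI3 and PTPRZ1 each had more reads in the control library than any gene that vanished.

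The promoters of 2 vanished genes and of 1 that was not called are printed because 5-azacytidine acts on methylation at CG dinucleotides, which are in capitals. As before, they are the 250 bases before the RefSeq start (GRCh38.p14), 5′ to 3′ on the strand of the gene.
KITLG (vanished) at chr12:88580472-88580721, minus strand: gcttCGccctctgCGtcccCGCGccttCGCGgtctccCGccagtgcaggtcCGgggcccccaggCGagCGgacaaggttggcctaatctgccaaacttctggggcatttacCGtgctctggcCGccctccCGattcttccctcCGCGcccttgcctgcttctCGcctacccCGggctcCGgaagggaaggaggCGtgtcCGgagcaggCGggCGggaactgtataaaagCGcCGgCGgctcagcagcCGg
SLC1A3 (vanished) at chr5:36606356-36606605, plus strand: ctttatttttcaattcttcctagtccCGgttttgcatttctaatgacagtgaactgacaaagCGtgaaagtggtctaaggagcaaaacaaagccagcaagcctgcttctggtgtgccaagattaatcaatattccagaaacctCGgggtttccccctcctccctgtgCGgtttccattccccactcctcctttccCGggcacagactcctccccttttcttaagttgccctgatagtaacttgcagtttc
SOX4 (not called) at chr6:21593501-21593750, plus strand: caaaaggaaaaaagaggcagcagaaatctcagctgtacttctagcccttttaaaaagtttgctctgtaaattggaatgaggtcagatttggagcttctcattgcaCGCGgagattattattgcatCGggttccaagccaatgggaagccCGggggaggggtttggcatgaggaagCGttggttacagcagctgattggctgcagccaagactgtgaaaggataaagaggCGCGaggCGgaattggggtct
KITLG held 26 CG dinucleotides in this window, SLC1A3 held 5 and SOX4 held 8. SLC1A3 had the fewest of the 7 vanished members with a window, and the other 6 held 20 to 42. SOX4 was level with NES for the fewest among the members tested but not called. Among members whose window lay at the most-read start, the 14 that fell had a median of 25.5 CG (range 4 to 42) and the 9 tested but not called had a median of 33 (range 8 to 40), while the median over all 35116 windows was 11. Methylation was not measured in these libraries.

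The second comparison asked what the TDP-43 knockdown did to the same genes. HES6 was the 1 of 37 called lower and 0 were called higher, where 0.363% and 0.392% of all tested genes were called. The median log2 ratio of the members was -0.03 without azacytidine and -0.18 with it, against 0.03 in both pairs over all tested genes. PAX6 had a log2 ratio of -0.14 (interval -0.38 to 0.10) between the libraries without the drug. In a crosswise pairing, knockdown over control and azacytidine over combined, 0 members were called lower and 0 higher, against 0.167% and 0.247% of all tested genes. A call there needs knockdown ratios of opposite sign with and without azacytidine.

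Some members differed between single pairs of libraries. KITLG went from 63 reads in the control library to 230 in the knockdown library (log2 ratio 1.61, interval 1.21 to 2.04; adjusted p = 3.03e-15, exact binomial test). FGFR2 went from 68 to 217 (log2 ratio 1.42, interval 1.02 to 1.84; adjusted p = 6.69e-12, exact binomial test). Neither could be repeated, since both genes were at 3 reads or fewer in the libraries with azacytidine. These were the 2 members past the rule upward in that pair, where 4.71% of all tested genes were. In the pair with azacytidine, 4 members were past it downward, HES6, DLL3, ID4 and PROM1, with 3.27% of all tested genes. The azacytidine ratio itself differed between the pairs with and without the knockdown for 3 members, ID4, PROM1 and MSI2, and for 6.43% of all tested genes.

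PAX6 transcripts were resolved next, since the gene has several starts and an alternative exon. Exon 5a is a short exon inside the paired domain, the DNA-binding part named after the family, and its inclusion changes which DNA sequences the protein binds. It is printed in capitals with the last 30 bases of the exon before it and the first 30 of the exon after it, from the GENCODE 29 sequence of transcript ENST00000419022.6, because the forms counted here are told apart by it.
PAX6 exon 5a at chr11:31801871-31801912, minus strand: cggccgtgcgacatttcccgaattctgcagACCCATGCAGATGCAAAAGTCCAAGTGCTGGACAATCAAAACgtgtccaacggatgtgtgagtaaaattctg
The exon is 42 bases long, or 14 codons. In control and knockdown libraries, 145 and 190 PAX6 reads were assigned to annotated transcripts (50.0% and 60.7% of the gene's reads), and all 3 and 4 reads in the azacytidine and combined libraries were.

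Both forms were made. Among reads on transcripts that hold both flanking exons, 53 of 140 in the control library had exon 5a (37.9%, 95% Wilson interval 30.2 to 46.1%) and 68 of 189 in the knockdown library did (36.0%, interval 29.5 to 43.0%). The shares differed by less than their counting error (p = 0.73, two-sided Fisher's exact test; adjusted p = 1 over 11 tests on PAX6 shares). With azacytidine, 2 of 3 reads and 2 of 4 reads had the exon, so both forms were still seen among the few reads left and no difference in share was detectable at this depth.

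Transcripts with reads numbered 29 of the 81 annotated for PAX6 and began in 10 clusters of starts, joined where neighbours lay within 300 bases. The main cluster (chromosome 11, 31811057 to 31811341) held 103 of 145 reads in the control library (71.0%, Wilson interval 63.2 to 77.8%) and 134 of 190 in the knockdown library (70.5%, interval 63.7 to 76.5%). The most upstream cluster (31817938 to 31817961) held 7 and 10 reads. A cluster inside the gene (31803960 to 31804460), whose transcripts lack the first exons of the longer forms, held 11 reads (7.59%) and 18 reads (9.47%). None of the 10 start shares differed between these libraries by Fisher's exact test after adjustment. With azacytidine, 2 of 3 reads and 3 of 4 reads came from the main cluster.

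**Figure D3:**
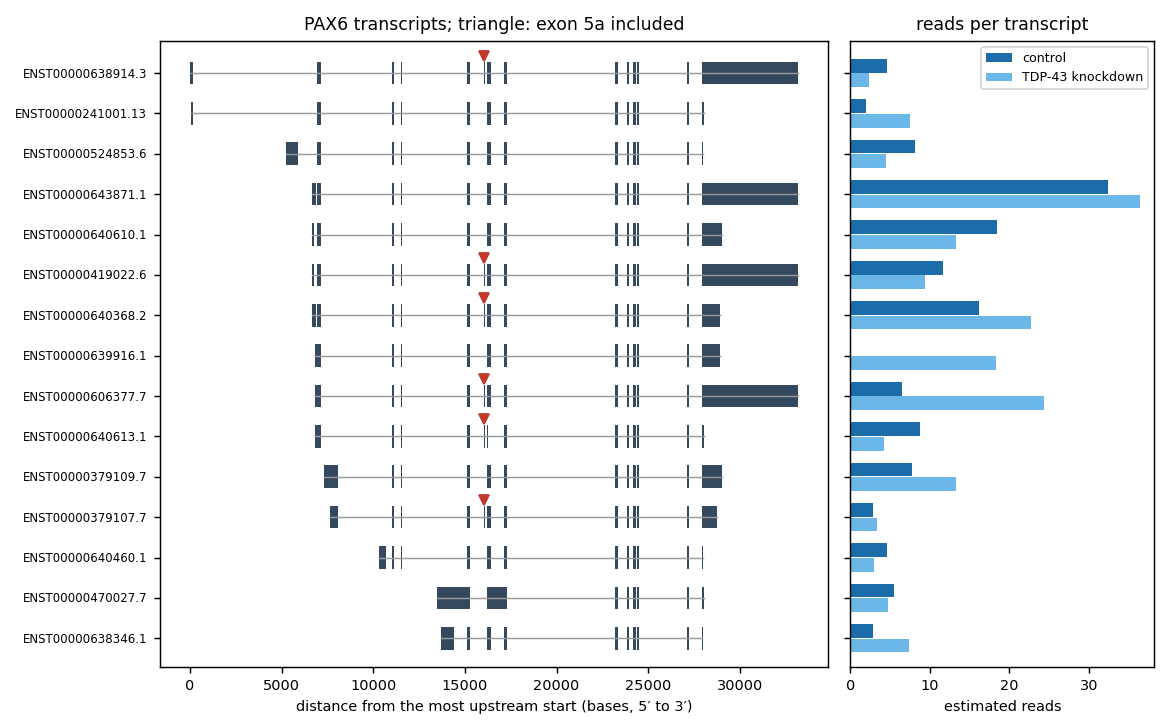
Left, exons (boxes) of the PAX6 transcripts with at least 5 estimated reads over the control and knockdown libraries, drawn to scale from the most upstream start, with exons under 70 bases widened to 70 and a triangle where exon 5a is included; right, estimated reads of each transcript in the control (dark) and knockdown (light) libraries. The most read transcript lacks exon 5a, and ENST00000639916.1 has reads in the knockdown library only.

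Of single PAX6 transcripts, ENST00000643871.1, which lacks exon 5a and has the long last exon, was the most read, with 32.4 estimated reads among control reads and 36.4 under knockdown. ENST00000640368.2, with exon 5a, had 16.2 and 22.7. ENST00000639916.1, which starts within the main cluster and lacks exon 5a, had 0 of 144 rounded reads in the control library and 18 of 188 in the knockdown library (9.57%; adjusted p = 0.00105 over all 15446 transcripts, Fisher's exact test), and 0 reads in both libraries with azacytidine. That difference rests on 1 pair, since the other pair had 3 and 4 PAX6 reads. Reads on PAX6 also face ELP4, a gene on the opposite strand that shares 5241 exon bases with it in the deposited annotation and had 32, 115, 19 and 13 reads in that order of libraries.

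Across the members, 57 transcripts of 17 genes had enough reads to test their share of the gene, and 0 changed share in both pairs for either treatment. Over all transcripts tested, 0.641% were lower and 0.479% higher with azacytidine, and 0.35% lower and 0.376% higher with the knockdown. At an adjusted p under 0.05 in single pairs there were differences in MSI1, FGFR1, LIN28A, MSI2, HMGA2, PAX6, GLI3 and DLL1. The shares above are for both pairs, and the share of all transcripts that passed in a single pair is not given here. Whether these members stand out is therefore not known. The HMGA2 difference rests on 3 HMGA2 reads in the azacytidine library. The totals of MSI1 and LIN28A were not called. In LIN28A, ENST00000254231.4 held 2.84% of 176 reads in the knockdown library and 16.7% of 90 in the combined library (adjusted p = 0.00329, Fisher's exact test). Without the knockdown it held 2.65% of 113 control reads and 3.57% of 84 reads with azacytidine. MSI1 is described further. An unannotated MSI1 transcript lacks the 57-base exon at chromosome 12, 120351344 to 120351400 and has a first exon extended at its 5′ end. It made up 12 of the 46 reads assigned to MSI1 transcripts in the control library (26.1%, Wilson interval 15.6 to 40.3%) and 18 of 63 in the knockdown library (28.6%, interval 18.9 to 40.7%). With azacytidine alone it made up 0 of 45 (interval 0 to 7.87%), and 5 of 55 in the combined library (9.09%, interval 3.95 to 19.6%). The adjusted p was 0.00676 without the knockdown and 0.0993 with it (Fisher's exact test), so the share was lower with the drug in both pairs and past the threshold in the first. The annotated ENST00000257552.7 held 58.7%, 63.5%, 86.7% and 70.9% in the order control, knockdown, azacytidine, combined. Its adjusted p was 0.0646 without the knockdown and 0.878 with it (Fisher's exact test). Another unannotated MSI1 transcript had 7, 5, 6 and 11 reads in that order. GLI3 differed between the control and knockdown libraries, where ENST00000395925.8 gave 73.8% of 103 reads and 52.9% of 138 (adjusted p = 0.0219, Fisher's exact test), and too few GLI3 reads remained with azacytidine to repeat it.

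**Figure D4:**
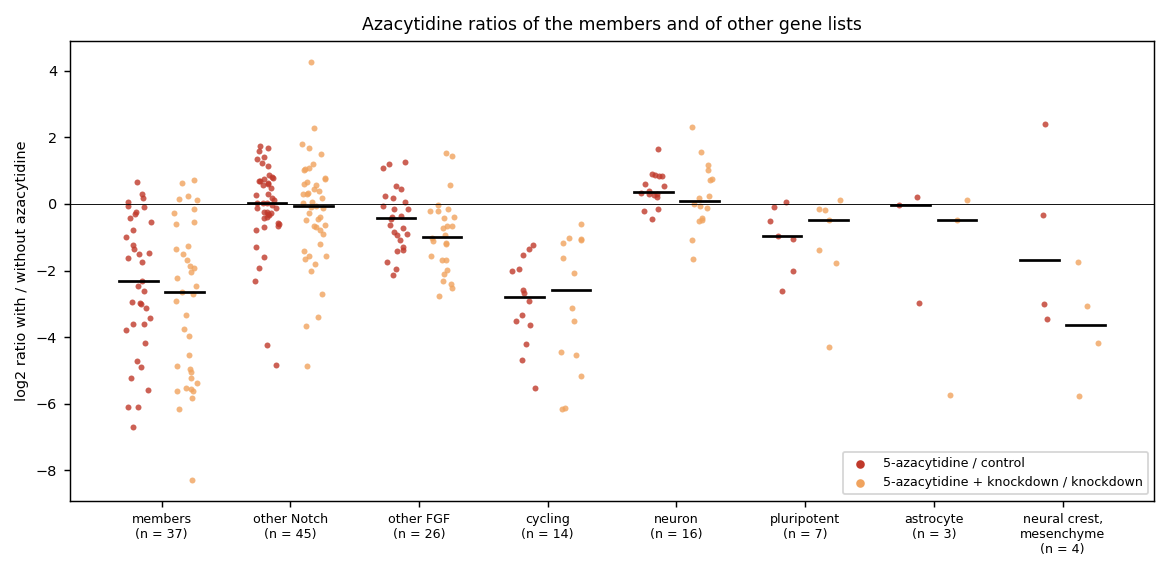
Log2 ratio with over without azacytidine for each tested gene of the members and of 7 other lists, in the pair without (red) and with (orange) the knockdown; each point is 1 gene and black bars are medians. The members (medians -2.32 and -2.65) and the genes of dividing cells (medians -2.79 and -2.60) lie well below 0, and the other Notch genes and the neuronal genes lie around it.

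The same values were set beside markers of other cells. For each count of markers that fell or rose, the shares over all tested genes were 6.19% and 2.56%. Genes of dividing cells had medians of -2.79 without the knockdown and -2.60 with it, close to those of the members. MKI67, a nuclear protein of cycling cells, went from 142 to 2 reads and from 154 to 1, and TOP2A, which untangles replicated DNA, from 109 to 3 and from 133 to 2. Of the neuronal markers 0 of 16 fell and 1 rose, RBFOX3, a splicing factor of maturing neurons, from 35 to 90 reads and from 39 to 131. The median log2 ratio of the 16 was 0.36 without the knockdown and 0.09 with it. Markers that were not called went both ways. MAP2 went from 540 to 319 reads (log2 ratio -0.47) and from 761 to 162 (-1.66), and NEFL from 343 to 250 and from 360 to 114. GAP43 went from 118 to 181 and from 126 to 191. Of neural crest and mesenchymal markers, 4 of 13 were tested and 2 fell, TFAP2A and COL1A1, with the summed level going from 150 and 178 CPM to 48.9 and 16.6, and TWIST1, PRRX1 and FOXD3 at 0 reads in every library. Of pluripotency markers, 7 of 12 were tested, LIN28A, a member, among them, and 2 fell, SALL4 and DPPA4, with the summed level going from 740 and 756 CPM to 456 and 554. How far any of these cells contributed to the changes in the members was not tested.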

How the data were processed

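Polyadenylated RNA was sequenced on the PacBio platform by a modified Iso-Seq v2 protocol with MarathonRT for the first strand, per the labels' protocols. Reads were aligned with minimap2 to hg38, per the file headers and the submitters' processing notes, and Bambu is named as the source in the deposited annotation (versions and settings not given in the sources used here). The deposited gene and transcript tables hold estimated counts (all reads and full-length reads) and counts of uniquely assigned reads. The deposited CPM values were used only to check their denominator, the total of the gene table. Every deposited gene count was even, within 0.00031, so counts were divided by 2 and rounded to whole reads, although why they are even is not stated. Of 166654 transcripts shared with GENCODE 29, 99.96% had the same exons.

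Reads were scaled by edgeR 4.0.16 TMM factors over genes whose mean was 5 reads or more, and CPM in the report refer to these sizes. Exact binomial tests between 2 libraries were adjusted by Benjamini-Hochberg over 13789 genes (SciPy 1.17.1), and p-values compare libraries, not conditions. Log2 ratios used a pseudocount of 0.5, and fold values and intervals used none. Transcript shares were compared by Fisher's exact test over 15446 transcripts with 10 reads or more, in genes whose mean was 20 or more, and a call needed 10 percentage points in both pairs. edgeR and DESeq2 1.42.0 additive models served as alternatives. The scripts were tested on simulated data. The members, the other gene lists and the rules were chosen with earlier results of these data known. Members were named with reads when called, vanished or at a mean of 20 reads or more. From each other list at most 4 called genes were named, those with the largest smaller ratio in each direction. RBPJ, NRARP, HEYL, GLUL, SLC1A2, MAP2, NEFL, GAP43, POU5F1, NANOG and markers at or near 0 were named after their values were seen. Depth, 466337 to 767621 reads, leaves counts of a few reads imprecise. Counting does not state the use of strand, so overlapping antisense genes are given beside several members. The result of 1 marker list is not reported here.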

Additional observations from a re-analysis of the deposited data

Results flagged for a closer look

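In 3 members the azacytidine log2 ratio differed between the pair with and the pair without the TDP-43 knockdown, by an exact test of the ratio of ratios adjusted over all tested genes, a test chosen after seeing the data. Of all 13789 tested genes, 6.43% passed it. With 1 library per group, such a difference compares 4 libraries and has no replicate. For ID4 the ratio was lower by 1.67 with the knockdown (difference -1.67, adjusted p = 0.00111), with 17 reads in the combined library against 68 with azacytidine alone. For PROM1 the difference was -3.08 (adjusted p = 0.0332), with 1 read against 17. For MSI2 the difference went the other way, 1.04 (adjusted p = 0.0443), with 52 reads against 33, and MSI2 still fell in both pairs.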

How the results depend on the processing

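The number of members that fell with azacytidine was 24, and lay between 17 and 26 under 10 other settings; it was 14 in the DESeq2 additive model and 8 in full-length counts, which hold fewer reads. No setting called a member higher. The 1 member called lower with the knockdown became 2 with total counts per library and 0 with a mean of at least 20 reads, no filter, uniquely assigned or full-length counts, or either additive model. Members that vanished numbered 3 without halving the deposited counts, in full-length counts, or when 0 reads were required. The members' median azacytidine log2 ratio without the knockdown was -1.98 at a mean of at least 20 reads, -1.56 with no filter and -1.34 in full-length counts. With the knockdown it was -2.33 at a mean of at least 20 reads, -2.33 with no filter, -2.30 at a pseudocount of 2 and -1.45 in full-length counts. The median knockdown log2 ratio without azacytidine, -0.03, was -0.15 with total counts and turned positive with TMM over all genes (0.074, added after seeing the data), a mean of at least 20 reads (0.06), uniquely assigned counts (0.087), full-length counts (0.049) and the length trend removed (0.001). With azacytidine it was -0.46 with no filter, -0.32 in uniquely assigned counts and 0.027 when counts under 3 reads were raised to 3. Single azacytidine ratios changed sign in full-length counts for SOX4 with the knockdown (0.60, against -1.19 without it), NES with it (-1.27, against -1.57 without it), LIN28B without and with it (0.17 and 0.13) and MSI1 without and with it (-0.233 and -0.042), in uniquely assigned counts for MSI1 without it (-0.041), and with the length trend removed for SOX11 without it (0.19). The cause was not tested. PAX6 exon 5a shares stayed within their intervals, at 31.2 to 39.3%. No paired analysis was possible because all libraries carry the same replicate number, 1, which leaves no block of replicates to fit beside the treatments, and with 1 library per group no replicate could be left out.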
